A study of Homo sapiens with 6 samples.

Results

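The polypyrimidine tract binding proteins are encoded by 3 genes, PTBP1, PTBP2 and PTBP3. They were taken by name from a count table of 23382 gene names, in which each of the 3 stood on 1 row, and all 3 had enough reads to pass the filter on low counts that left 11069 genes. The genes were chosen by their contrast between the same 2 groups of libraries, with their fold changes already known, so their levels and fold changes are given as a description and no p is attached to them. RNA was sequenced from UM-UC-3, a line established from a human bladder cancer. One group of 3 libraries is labelled si-CPSF3, an siRNA against the endonuclease that cuts pre-mRNA ahead of the poly(A) tail, and the other group of 3 is labelled negative control. The labels give the siRNA no dose or time, and do not name the cultures behind the replicates, so the p-values below reflect only how these libraries vary among themselves, which may be technical variation.

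PTB proteins bind pyrimidine-rich stretches of RNA through RNA recognition motifs and mostly repress the exons beside them. PTBP1 is made in most dividing cells, PTBP2 is best known from developing neurons, and PTBP3, first described as ROD1, is best known from blood cells. The genes are cross-regulated: PTBP1 protein promotes skipping of a short exon in its own transcript and in that of PTBP2, and the shifted reading frame sends the skipped transcript to nonsense-mediated decay, the pathway that destroys mRNAs with an early stop codon. In neurons, the microRNA miR-124 lowers PTBP1 and PTBP2 protein then appears.

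The exon in question is shown as background to this cross-regulation, which was not tested here. In GENCODE 29 (GRCh38) a coding exon of 34 bases stands at the matching place in each gene, as exon 10 of 14 in the transcript with the longest coding sequence among those that hold it. In PTBP2 and PTBP3 the exon of that length most like the PTBP1 exon was taken. It lies at chr19:807869-807902 on the plus strand in PTBP1, at chr1:96806419-96806452 on the plus strand in PTBP2 and at chr9:112231380-112231413 on the minus strand in PTBP3. Below, 30 coding bases on each side are in lower case; the long run of capitals marks the exon, and the 3 later capitals mark the stop codon that is read when the exon is left out.
PTBP1: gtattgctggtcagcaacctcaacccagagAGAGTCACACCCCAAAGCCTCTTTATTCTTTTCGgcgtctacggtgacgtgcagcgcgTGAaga
PTBP2: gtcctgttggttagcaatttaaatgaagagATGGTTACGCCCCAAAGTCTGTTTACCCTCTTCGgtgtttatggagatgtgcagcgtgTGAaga
PTBP3: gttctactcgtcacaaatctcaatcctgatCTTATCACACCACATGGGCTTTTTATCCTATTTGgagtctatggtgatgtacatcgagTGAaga

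The 34 bases were identical at 25 positions between PTBP1 and PTBP2, at 22 between PTBP1 and PTBP3, at 21 between PTBP2 and PTBP3, and at 19 in all 3. The exon length is not a multiple of 3, and in each of the 3 transcripts skipping it brought a TGA into frame that ended 27 bases after the new junction, with 3 exon junctions downstream and the last of them 361 bases away. GENCODE lists 5 PTBP1 transcripts that skip the exon, 2 of them typed as targets of nonsense-mediated decay, 3 such PTBP2 transcripts, none of them so typed, and 0 such PTBP3 transcripts. The deposited values are sums per gene, so inclusion of this exon was not measured. No stretch of 50 bases was shared between the transcripts of the 3 genes, and the longest exact match between any 2 of them was 21 bases. PTBP1 shared at most 48 bases in a row with its pseudogene PTBP1P, which was not analysed here.

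The libraries held 4145385 to 4378899 counts with 1 row a gene, and 16824 to 17379 genes with at least 1 count. Ribosomal protein genes and their pseudogenes took 47.0% to 52.6% of the counts, which lowers the depth left for other genes. CPSF3 went against the label: it had 56, 38 and 66 counts in the si-CPSF3-labelled libraries, against 20, 50 and 36 in the control libraries (log2 fold change 0.67, SE 0.32, edgeR adjusted p = 0.329; two-sided exact permutation p = 0.3, where 0.1 is the smallest possible). The groups are therefore called by their labels, and every direction below is that of the si-CPSF3-labelled libraries relative to the control libraries. The keratin genes KRT8 and KRT18 were at 142 ± 18.3 and 74.8 ± 8.98 CPM in the si-CPSF3-labelled libraries and at 135 ± 27.8 and 97.3 ± 15.4 CPM in the control libraries (SD, n = 3), while the epithelial markers EPCAM, CDH1 and KRT19 and the urothelial marker UPK2 had 0 counts in all 6. Other markers of the list were detected: UPK1B had 38 counts in the si-CPSF3-labelled libraries and 78 in the control libraries. In the same order, KRT7 had 34 and 54 counts, PPARG 72 and 74, GATA3 5 and 19, and UPK1A 5 and 5. Of the 15 epithelial and urothelial markers, 5 were tested, and edgeR and DESeq2 called 0, with 2 at an unadjusted p under 0.05.

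PTBP1, the broadly expressed member, was lower in the si-CPSF3-labelled libraries. It had 191, 241 and 295 counts in replicates 1, 2 and 3 of the si-CPSF3-labelled libraries, against 474, 457 and 413 in control replicates 1, 2 and 3. Scaled to library size, these were 51.3, 56.3 and 66.9 CPM in the si-CPSF3-labelled libraries and 107, 95.2 and 107 CPM in the control libraries. The groups did not overlap, and each control library lay above each si-CPSF3-labelled library. The means were 58.2 ± 7.97 and 103 ± 6.95 CPM (SD, n = 3; si-CPSF3-labelled libraries and control libraries), a log2 fold change of -0.83 (SE 0.15), or 1.77-fold lower. In reads, without allowing for gene length, 6.32% of the genes tested had a higher mean CPM than PTBP1.

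PTBP2, the neuronal member, was higher in the si-CPSF3-labelled libraries. It had 45, 26 and 49 counts in replicates 1, 2 and 3 of the si-CPSF3-labelled libraries, against 15, 18 and 2 in control replicates 1, 2 and 3. These were 12.1, 6.07 and 11.1 CPM in the si-CPSF3-labelled libraries and 3.39, 3.75 and 0.520 CPM in the control libraries. The groups did not overlap, control replicate 3 stood well below the other control libraries, and replicate 2 was the lowest of the si-CPSF3-labelled libraries. The means were 9.76 ± 3.23 CPM in the si-CPSF3-labelled libraries and 2.55 ± 1.77 CPM in the control libraries (SD, n = 3), a log2 fold change of 1.88 (SE 0.46), or 3.67-fold higher. The control SD exceeded the 0.748 CPM that counting error alone gives at that depth. Without control replicate 3 the log2 fold change was 1.46.

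PTBP3, the member best known from blood cells, had the fewest reads over the 6 libraries and was lower on average in the si-CPSF3-labelled libraries. It had 6, 11 and 14 counts in replicates 1, 2 and 3 of the si-CPSF3-labelled libraries, against 12, 26 and 31 in control replicates 1, 2 and 3, which were 1.61, 2.57 and 3.17 CPM in the si-CPSF3-labelled libraries and 2.71, 5.42 and 8.07 CPM in the control libraries. The groups overlapped, since control replicate 1 lay below replicate 3 of the si-CPSF3-labelled libraries. The means were 2.45 ± 0.788 CPM in the si-CPSF3-labelled libraries and 5.40 ± 2.68 CPM in the control libraries (SD, n = 3), a log2 fold change of -1.10 (SE 0.46). Without control replicate 3 it was -0.70 and without control replicate 1 it was -1.43. In bulk RNA, fewer cells that make a transcript and less of it per cell cannot be told apart.

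**Figure D1:**
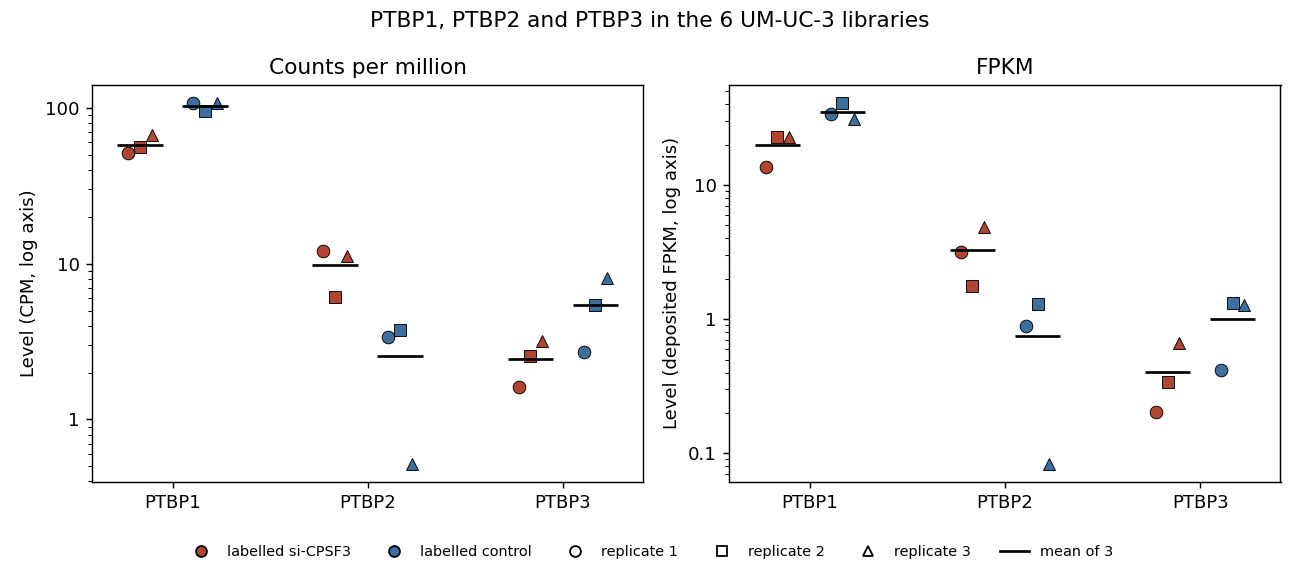
Level of PTBP1, PTBP2 and PTBP3 in each library as CPM (left) and deposited FPKM (right), both on log axes; symbols are replicates, red is labelled si-CPSF3, blue is labelled control, and lines are means of 3. PTBP1 at 58.2 CPM lies below its control mean of 103 CPM, PTBP2 at 9.76 CPM lies above its control mean of 2.55 CPM, and the PTBP3 groups overlap.

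In the fit across all genes, PTBP1 and PTBP2 were among the 247 of 11069 genes called by edgeR at an adjusted p under 0.05 (2.23%) and PTBP3 was not; 0.723% of the genes tested were called higher and 1.51% lower. Higher genes made up 32.4% of the calls, or 18.9% of the 190 calls with scaling by library totals. Groups that did not overlap, as for PTBP1 and PTBP2, were seen for 21.2% of the genes tested. Since the genes were chosen with these calls known, nothing is read from them. When each library was omitted in turn, PTBP2 was called in 0 of 6 fits, at log2 fold changes of 1.46 to 2.25. PTBP1 was called in 3 of 6, at -0.94 to -0.72: the call ended without replicate 1 (-0.72) or replicate 2 (-0.78) of the si-CPSF3-labelled libraries and without control replicate 1 (-0.80). PTBP2 also lost its call with scaling by library totals (1.75), with the replicate block (1.91) and on either FPKM scale, and PTBP1 on either FPKM scale (-0.83 and -0.86). Under the 15 alternatives the direction of each gene was kept, and the range of PTBP2 was 1.28 on log2(FPKM + 1) to 2.30 on log2(FPKM + 0.1).

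**Figure D2:**
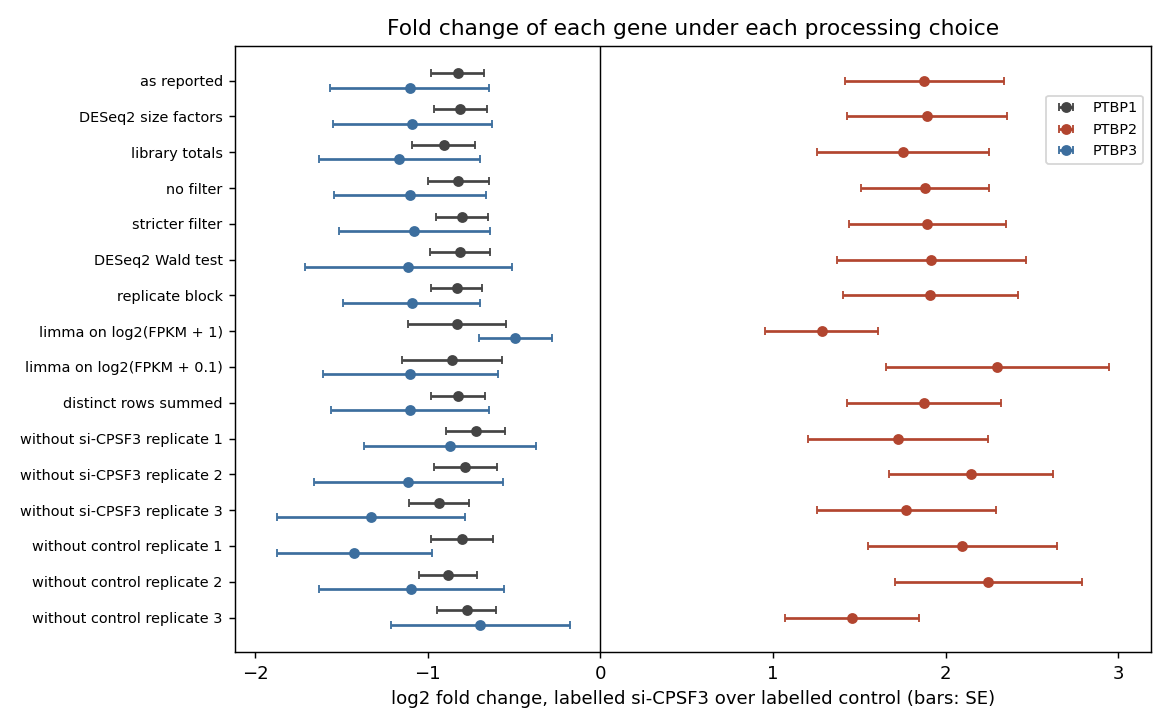
Log2 fold change of each gene, labelled si-CPSF3 over labelled control (x axis; bars are SE), as reported and under 15 other processing choices (rows). PTBP2 stays above 0 between 1.28 and 2.30, PTBP1 stays below 0 between -0.94 and -0.72, and PTBP3 stays below 0 between -1.43 and -0.49.

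The make-up of the family was compared within each library, where library scaling cancels. PTBP2 gave 18.6% (exact 95% binomial interval 13.9 to 24.1), 9.35% (6.20 to 13.4) and 13.7% (10.3 to 17.7) of the 3 genes' counts in replicates 1, 2 and 3 of the si-CPSF3-labelled libraries. In control replicates 1, 2 and 3 it gave 2.99% (1.69 to 4.89), 3.59% (2.14 to 5.62) and 0.448% (0.0544 to 1.61). Each interval of a si-CPSF3-labelled library lay above each control interval. These intervals cover counting error only. The genes were chosen by this same contrast, so the separation is a description and not a test. The mean share of PTBP2 was 13.9% ± 4.62 in the si-CPSF3-labelled libraries and 2.35% ± 1.67 in the control libraries (SD, n = 3).

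The share of PTBP1 was 82.7% ± 3.89 in the si-CPSF3-labelled libraries and 92.8% ± 1.71 in the control libraries, so PTBP1 took most of the reads in every library. That of PTBP3 was 3.45% ± 0.840 in the si-CPSF3-labelled libraries and 4.85% ± 2.30 in the control libraries (SD, n = 3), with overlapping groups. There were 4.24, 9.27 and 6.02 PTBP1 counts for each PTBP2 count in replicates 1, 2 and 3 of the si-CPSF3-labelled libraries, against 31.6, 25.4 and 206 in control replicates 1, 2 and 3. The 3 genes together came to 70.4 ± 9.37 CPM in the si-CPSF3-labelled libraries and 111 ± 6.07 CPM in the control libraries (SD, n = 3), a ratio of 0.633: the added PTBP2 reads numbered fewer than the PTBP1 reads that were missing.

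**Figure D3:**
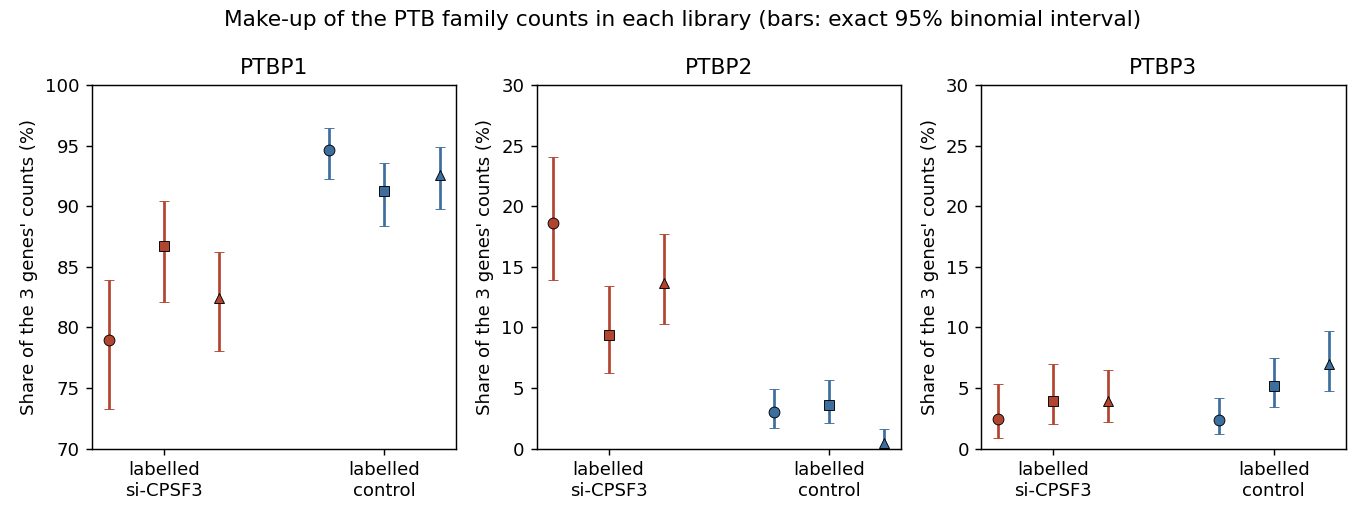
Share of the summed PTBP1, PTBP2 and PTBP3 counts taken by each gene (y axis in percent, starting at 70 for PTBP1 and at 0 for the others) in the 3 si-CPSF3-labelled libraries (red) and the 3 labelled control (blue), with exact 95% binomial intervals. The PTBP2 share is 9.35% to 18.6% in the si-CPSF3-labelled libraries and 0.448% to 3.59% in the control libraries.

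Shares and CPM do not allow for gene length, so the order of the 3 genes was taken on the FPKM scale, which divides by it. In the si-CPSF3-labelled libraries the deposited FPKM was highest for PTBP1 at 19.7 ± 5.27, then PTBP2 at 3.25 ± 1.53, then PTBP3 at 0.404 ± 0.240 (SD, n = 3), and the values of these neighbours did not overlap. In the control libraries PTBP1 was at 35.2 ± 5.09 FPKM, followed by PTBP3 at 1.005 ± 0.511 and PTBP2 at 0.753 ± 0.613 (SD, n = 3), and the lower 2 did not differ beyond their spread. By library, PTBP2 had 3.15, 1.78 and 4.83 FPKM in replicates 1, 2 and 3 of the si-CPSF3-labelled libraries, against 0.888, 1.29 and 0.0839 FPKM in control replicates 1, 2 and 3. PTBP2 thus stood above PTBP3 in each si-CPSF3-labelled library, and above it only in replicate 1 of the control libraries. The ratio of mean FPKM, si-CPSF3-labelled libraries over control libraries, was 0.561 for PTBP1, 4.32 for PTBP2 and 0.402 for PTBP3. The 2 deposited tables are not on one scale per gene: the count behind 1 FPKM, relative to the library median, varied over libraries by 1.33-fold for PTBP1, 2.34-fold for PTBP2 and 1.63-fold for PTBP3, against a median of 1.54-fold over 4817 genes.

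Genes of the pathway were followed in lists, with the calls of the fit across all genes. The lists were chosen with earlier results of these data known, so the shares called below are a description and not a test. The median log2 fold change of all genes tested was -0.0079. HNRNPL and HNRNPLL, splicing regulators of related sequence, were at -0.46 (edgeR adjusted p = 0.62) and -0.07 (adjusted p = 0.958). Of 17 cofactors and antagonists of PTB, 15 were tested, and edgeR and DESeq2 called 0, with 3 at an unadjusted p under 0.05 and a median of 0.0087. Among them were the corepressors RAVER1, at 3.84 ± 0.805 CPM in the si-CPSF3-labelled libraries and 5.28 ± 0.715 CPM in the control libraries, and MATR3, at 26.5 ± 5.54 and 19.6 ± 3.53 CPM in these groups (SD, n = 3; adjusted p = 0.598 and 0.347). PCBP2, a poly(C)-binding protein, was at 108 ± 14.5 CPM in the si-CPSF3-labelled libraries and 134 ± 6.15 CPM in the control libraries (SD, n = 3; log2 fold change -0.31, edgeR adjusted p = 0.338). SRRM4, the neuronal factor that favours inclusion of the PTBP2 exon, was not analysed here.

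Of 15 genes known to carry exons regulated by PTB proteins, 9 were tested, of which 1 rose and 1 fell (22.2% called, against 2.23% of all genes), with a median of -0.24. FLNA, the actin crosslinker filamin A, fell to 122 ± 13.3 CPM in the si-CPSF3-labelled libraries, against 204 ± 42.4 CPM in the control libraries (SD, n = 3; log2 fold change -0.74, SE 0.17, edgeR adjusted p = 0.0321). TPM2, the actin-binding beta-tropomyosin, rose to 78.2 ± 5.36 CPM in the si-CPSF3-labelled libraries, against 48.8 ± 8.56 CPM in the control libraries (SD, n = 3; log2 fold change 0.68, SE 0.16, edgeR adjusted p = 0.043). When each library was omitted, FLNA passed only without control replicate 3, at log2 fold changes of -0.85 to -0.58, and TPM2 passed in 0 of 6 fits, at 0.57 to 0.80. PKM, the pyruvate kinase whose alternative exons PTBP1 helps to choose, was at 231 ± 25.7 CPM in the si-CPSF3-labelled libraries and 307 ± 40.6 CPM in the control libraries (SD, n = 3; log2 fold change -0.41, edgeR adjusted p = 0.206). These are totals per gene, not levels of the regulated exons.

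Nonsense-mediated decay sets how much of a skipped PTB transcript remains, so its factors were examined next. Of 19 factors, 18 were tested, and edgeR and DESeq2 called 0, with 4 at an unadjusted p under 0.05 and a median of 0.06. Among the 18, 10 log2 fold changes were positive and 8 negative. The summed factors ran from 604 to 620 CPM in the si-CPSF3-labelled libraries and 508 to 533 CPM in the control libraries. UPF1, the central helicase of the pathway, was at 16.3 ± 1.03 CPM in the si-CPSF3-labelled libraries and 24.5 ± 2.52 CPM in the control libraries (SD, n = 3; log2 fold change -0.58, SE 0.19, edgeR adjusted p = 0.14). UPF2 and UPF3A, the genes of the list with the highest mean CPM and bridges between UPF1 and the exon junction, were at 0.44 (adjusted p = 0.154) and 0.42 (adjusted p = 0.184). Of 11 transcripts known to be subject to the pathway, 10 were tested and 1 rose (10% called, against 2.23% of all genes), with 0 lower and a median of 0.23. It was DDIT3, the stress transcription factor CHOP, which is also induced by ATF4 (log2 fold change 1.33, SE 0.14, edgeR adjusted p = 0.000124). SNHG12 lay just past the threshold, at 0.83 (edgeR adjusted p = 0.053), and DESeq2 called 2 genes of the list. ATF4, another member of the list, was at -0.06 (adjusted p = 0.903). Among the 10 tested, 7 log2 fold changes were positive and 3 negative. DDIT3 included, the summed list ran from 799 to 805 CPM in the si-CPSF3-labelled libraries and 543 to 648 CPM in the control libraries. These are RNA levels, and the part of ATF4 in the DDIT3 level was not tested.

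REST, the repressor of neuronal genes outside the nervous system, was at 8.29 ± 1.20 CPM in the si-CPSF3-labelled libraries and 9.11 ± 5.39 CPM in the control libraries (SD, n = 3; log2 fold change -0.16, edgeR adjusted p = 0.884), and its sign turned without control replicate 2 (0.41). The REST list held 11 genes: REST, corepressors, small phosphatases and host genes of miR-124. Of these, 8 were tested and edgeR and DESeq2 called 0, with 2 at an unadjusted p under 0.05 and a median of -0.25. Those with the highest mean CPM were HDAC1, a histone deacetylase (0.47, adjusted p = 0.245), and CTDSP2, a small phosphatase (0.21, adjusted p = 0.687).

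Most markers of neurons, where PTBP2 is best known, had too few counts for the test or were not analysed here. Of 20 neuronal genes, 6 were tested, of which 2 rose and 0 fell (33.3% called, against 2.23% of all genes), with a median of 0.15. Among the 6, 3 log2 fold changes were positive and 3 negative. Those not called were ENO2 at 0.43, TUBB3 at -0.18, NCAM1 at -0.13 and DPYSL3 at -0.55. SYP, the synaptic vesicle protein synaptophysin, rose to 17.9 ± 1.71 CPM in the si-CPSF3-labelled libraries, against 7.80 ± 1.17 CPM in the control libraries (SD, n = 3; log2 fold change 1.20, SE 0.23, edgeR adjusted p = 0.0126). KIF5A, a neuronal kinesin, rose to 8.44 ± 1.49 CPM in the si-CPSF3-labelled libraries, against 2.65 ± 0.488 CPM in the control libraries (SD, n = 3; log2 fold change 1.65, SE 0.34, edgeR adjusted p = 0.0175). SYP lost its call without replicate 1 of the si-CPSF3-labelled libraries (1.14) and without control replicate 2 (1.08). KIF5A passed in 2 of 6 fits that left out a library, at 1.52 to 1.79, and lost its call without replicate 1 (1.69) or replicate 3 (1.52) of the si-CPSF3-labelled libraries and without control replicate 1 (1.73) or control replicate 3 (1.54).

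ELAVL3 and GAP43 had 0 counts in all 6 libraries, MAP2 had 0 counts in the si-CPSF3-labelled libraries and 2 in the control libraries, and DCX had 1 in the si-CPSF3-labelled libraries and 0 in the control libraries. The summed level of the neuronal list ran from 81.5 to 102 CPM in the si-CPSF3-labelled libraries and from 64.6 to 79.9 CPM in the control libraries, and its part in the PTBP2 level was not tested. Of 9 leukocyte markers, the other setting in which a member is well known, 2 were tested, and edgeR and DESeq2 called 0, with 1 at an unadjusted p under 0.05. CD68, a lysosomal protein of macrophages, was at 14.1 ± 2.49 CPM in the si-CPSF3-labelled libraries and 25.3 ± 3.88 CPM in the control libraries (adjusted p = 0.0524), and LYZ, lysozyme, was at 17.1 ± 1.63 and 15.7 ± 1.77 CPM in these groups (SD, n = 3; adjusted p = 0.851). The summed level of the leukocyte list ran from 27.7 to 34.4 CPM in the si-CPSF3-labelled libraries and from 38.6 to 43.4 CPM in the control libraries, and its part in the PTBP3 level was not tested.

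**Figure D4:**
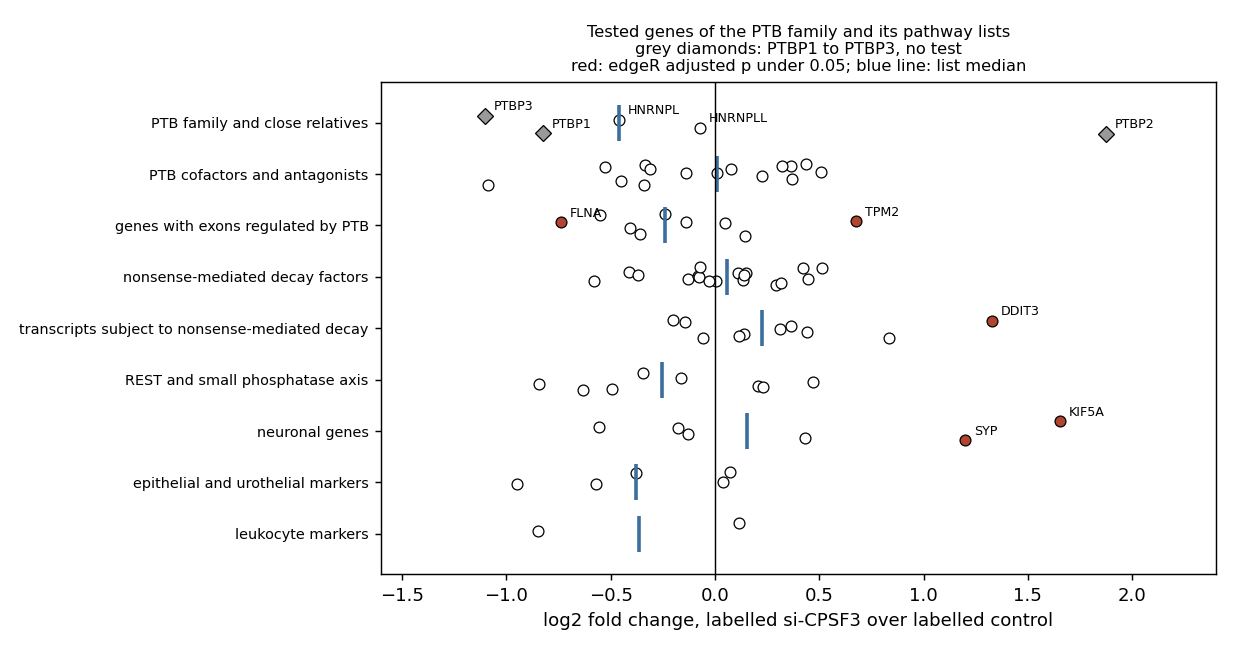
Log2 fold change, labelled si-CPSF3 over labelled control, of each tested gene in the PTB family and in 8 pathway or marker lists (rows); red points had an edgeR adjusted p under 0.05, grey diamonds are PTBP1 to PTBP3, and blue lines are list medians. PTBP1 to PTBP3 are grey whether called or not. The called genes apart from them are FLNA at -0.74, TPM2 at 0.68, DDIT3 at 1.33, SYP at 1.20 and KIF5A at 1.65.

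The positions of the genes were taken from RefSeq (GRCh38.p14). PTBP1 lies at chr19:797452-812312, PTBP2 at chr1:96721784-96823739 and PTBP3 at chr9:112217715-112379882. No other RefSeq gene overlaps PTBP2; its nearest coding neighbour before it, RWDD3, had 39 counts in the si-CPSF3-labelled libraries and 24 in the control libraries, and the nearest after it, DPYD of pyrimidine breakdown, was at -1.10 (edgeR adjusted p = 0.18). PTBP1 holds 1 microRNA gene, MIR4745, and its neighbour MISP had 2 counts in the si-CPSF3-labelled libraries and 0 in the control libraries; PLPPR3, 176 bases past its end, was not analysed here. PTBP3 holds 5 pseudogenes. HSDL2 starts 226 bases from the end of the PTBP3 interval and had 12.9 ± 1.46 CPM in the si-CPSF3-labelled libraries and 10.8 ± 1.96 CPM in the control libraries (SD, n = 3; log2 fold change 0.24, edgeR adjusted p = 0.694), and SUSD1 on the other side had 1 count in the si-CPSF3-labelled libraries and 0 in the control libraries.

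The genes most like each member were found by Pearson's r of log2 CPM over the 6 libraries, among genes with a mean of at least 5 CPM; the libraries share their group structure, so high values are common and carry no test. Nearest to PTBP1 were AXL, a receptor tyrosine kinase (r = 0.994), the focal adhesion gene LPP (0.990), the mitochondrial rRNA methyltransferase gene TFB1M (0.989) and LTBP2, a matrix protein (0.989). AXL had 230 ± 25.0 CPM in the si-CPSF3-labelled libraries and 392 ± 29.3 CPM in the control libraries (SD, n = 3; log2 fold change -0.77, edgeR adjusted p = 0.0119). Nearest to PTBP2 were NGRN (0.993), HIKESHI, a nuclear import carrier of heat shock proteins (0.993), C17orf49 (0.990) and RIC1 (0.990). Each of these 4 had a smaller log2 fold change than PTBP2, from 0.24 for NGRN to 0.55 for C17orf49, and none was called (edgeR adjusted p = 0.57 for NGRN and 0.136 for C17orf49). Nearest to PTBP3 were SEC31B (0.994), C14orf119 (0.992), LOC124901669 (0.989) and TMEM185B (0.983). Among the members, r was -0.802 between PTBP1 and PTBP2, 0.744 between PTBP1 and PTBP3 and -0.841 between PTBP2 and PTBP3 over the 6 libraries.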

How the data were processed

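Kits for column-based extraction and SMARTer mRNA libraries were used, per the labels' protocols. The submitters' processing notes name hg38. No aligner, counter, strand setting or annotation is named in the labels. The authors deposited raw read counts per gene and FPKM values, with 1 column a library. Where a name had several rows, the one of largest mean was kept. Genes were tested with edgeR 4.0.16 (R 4.3.3): quasi-likelihood fit with TMM factors, the default expression filter and group as the only term, two-sided, Benjamini-Hochberg adjusted over 11069 genes at 0.05. SE is the absolute log2 fold change over the root of F, and CPM uses TMM-adjusted library sizes. DESeq2 1.42.0 and limma 3.58.1 served as alternatives. Replicates of a group differed by more than sampling noise (chi-square per degree of freedom 5.91 to 14.2).

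The members and lists were chosen with earlier results of these data known. Named were, in each list, up to 4 called genes with the largest change among those averaging 1 CPM or more, or else the 2 with the highest mean CPM; RAVER1, MATR3, SRRM4, REST, HNRNPL, HNRNPLL, PKM and UPF1 whatever their values; the 4 genes most like each member; and nearest or overlapping genes. ATF4, SNHG12 and the epithelial, urothelial and neuronal markers outside this rule were added after their values were seen. A gene that the rule names among the cofactors is not reported here.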

Additional observations from a re-analysis of the deposited data

How the results depend on the processing

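Over all genes, 247 calls were made as reported, 547 with no filter, 147 with the replicate block, 41 on log2(FPKM + 1), 31 on log2(FPKM + 0.1), and 85 to 199 with 1 library left out (lowest at 115 and 85 without replicate 1 or 2 of the si-CPSF3-labelled libraries and 122 without control replicate 1). The replicate numbers were not taken as pairs: deviations from group means of same-numbered libraries correlated at 0.106, 0.109 and -0.0653. Calls among genes with PTB-regulated exons were 2 as reported, 1 scaled by library totals, 0 with the replicate block, 0 on either FPKM scale, and 0 to 1 with a library left out. Among transcripts subject to nonsense-mediated decay they were 1 as reported, 2 with DESeq2 size factors, no filter, the stricter filter, DESeq2 or summed rows, 0 on either FPKM scale, and 1 to 2 with a library left out. Neuronal calls were 2 as reported, 1 with the replicate block, 0 on either FPKM scale, and 0 to 2 with a library left out. Leukocyte calls were 0 as reported, 1 by library totals, no filter, the stricter filter or summed rows, and 0 to 1 with a library left out, the call being CD68 without control replicate 2. PTBP3 moved to -0.49 on log2(FPKM + 1). The difference in the PTBP2 share was 11.5 percentage points, 9.17 to 13.8 with a library left out and 12.3 on FPKM, a setting chosen after seeing the data. CPSF3 was not called under any of the 15 alternatives, at 0.38 to 0.91 with a library left out. KRT8, at 0.07, was at -0.019 by library totals and -0.014 to 0.27 with a library left out; REST was at -0.46 to 0.41 and HNRNPLL at -0.40 to 0.13. Library totals moved the median of all genes to -0.103. Causes were not tested. Depth limits PTBP3, at 31 counts in the si-CPSF3-labelled libraries and 69 in the control libraries, and PTBP2, at 120 counts in the si-CPSF3-labelled libraries and 35 in the control libraries.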
